A study of Mus musculus with 10 samples.

Results

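Dendritic cells of the spleen were followed through 10 genes chosen by name as markers of their subsets, out of 54532 genes measured. They are Xcr1, Clec9a, Cd207 and Batf3 for type 1 conventional dendritic cells (cDC1), Clec4a4 and Esam for type 2 conventional dendritic cells (cDC2), Itgax and Zbtb46 for dendritic cells in general, and Siglech and Ccr9 for plasmacytoid dendritic cells. Cd207 in each DUSP6 KO spleen exceeded its level in all WT spleens, at 2.17 ± 1.14 against 0.310 ± 0.292 FPKM (SD, n = 5 each), a 7.0-fold difference of the means. The groups of each of the other 9 genes overlapped, and their means differed by 1.27-fold or less. In limma on log2 FPKM, no member passed after adjustment over all genes, so the log2 fold change of each member is given below with its interval.

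Spleens of 5 DUSP6 KO mice, homozygous for the Dusp6tm1Jmol allele, and of 5 C57BL/6J wild-type (WT) mice were compared 9 days after induction of KRN serum-induced arthritis (KSIA), a model in which serum of arthritic mice transfers joint inflammation to the recipient. All 10 mice had received 100 µL of pooled arthritogenic serum intraperitoneally on days 0 and 2, so that both groups were given serum and no untreated spleen is present. Arthritis scores of these mice were not analysed here. Mice were 8 to 12 weeks old. Both strains were purchased, and whether the WT mice were littermates is not stated in the sources used here. DUSP6 is a phosphatase that inactivates the MAP kinase Erk, and its gene was deleted in all cells of the mouse rather than in dendritic cells alone. The labels speak of a DUSP6 knockdown where the paper has a knockout, and KO is written throughout. Libraries are named by the animal numbers of the labels, 26, 21, 73, 01 and 03 for DUSP6 KO and 65, 67, 73, 77 and 83 for WT.

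Whole-spleen RNA was sequenced with 1 library per mouse, at 14990474 to 19822673 reads assigned to genes. Values are FPKM, the reads of a gene divided by its length and by the library's depth, so that levels of different genes can be set side by side. Dusp6 was at 0.308 to 0.624 FPKM in the DUSP6 KO libraries and at 16.6 to 24.0 in the WT libraries, in accord with the labels. The library of WT 67 held RNA of exocrine pancreas, with 6163 FPKM summed over 5 pancreas genes against at most 26.2 in any DUSP6 KO library. WT 65 held less of it, with 703 reads of Pnlip against 57741 in WT 67 and at most 3 in each of the other 8 libraries. The library of WT 77 had the highest sum of 8 neutrophil genes, 4117 FPKM, against at most 1652 in the DUSP6 KO libraries. Among the members, leaving out WT 77 brought the log2 fold change of Cd207 to 2.30 and that of Itgax to -0.0329.

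Conventional dendritic cells take up antigen and present it to T cells. The cDC1 depend on the transcription factors Batf3 and Irf8, take up dead cells through Clec9a and present their antigens to CD8+ T cells, whereas cDC2 mainly prime CD4+ T cells and, in the spleen, depend on Notch2 signals. Plasmacytoid dendritic cells are specialized in the release of type I interferon. In RNA of a whole spleen, fewer cells of a type and less RNA per cell cannot be told apart.

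All 10 members passed the filter on low values, a mean of at least 0.1 FPKM. Itgax, Zbtb46, Xcr1, Clec9a, Batf3, Esam, Siglech and Ccr9 had over 100 reads in every library, and Clec4a4 had 41 to 108. Markers of each subset were thus present in the labelled tissue, though Esam, Siglech and Ccr9 are not confined to dendritic cells. In the limma comparison of log2(FPKM + 0.1), 2 of the 10 members, Cd207 and Siglech, differed at an unadjusted p under 0.05, both toward higher values in DUSP6 KO. The background was 5.66% of the 21296 genes tested, and 2.62% for genes higher in DUSP6 KO. The members were chosen with earlier results of these data known. The shares over all genes given here are therefore a description and no test of the set. None of the 10 was called at an adjusted p of up to 0.05 in limma on log2 FPKM or in limma voom, where the same count at an unadjusted p under 0.05 was also 2. Over all genes, 0.0704% reached that adjusted threshold, 0.0376% as higher and 0.0329% as lower in DUSP6 KO. The median log2 fold change of the members was 0.09, beside -0.0046 for all genes tested. A single member, Cd207, had no overlap between the groups, against 1.11% of all genes tested, or 0.549% with every DUSP6 KO library above every WT library.

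**Figure D1:**
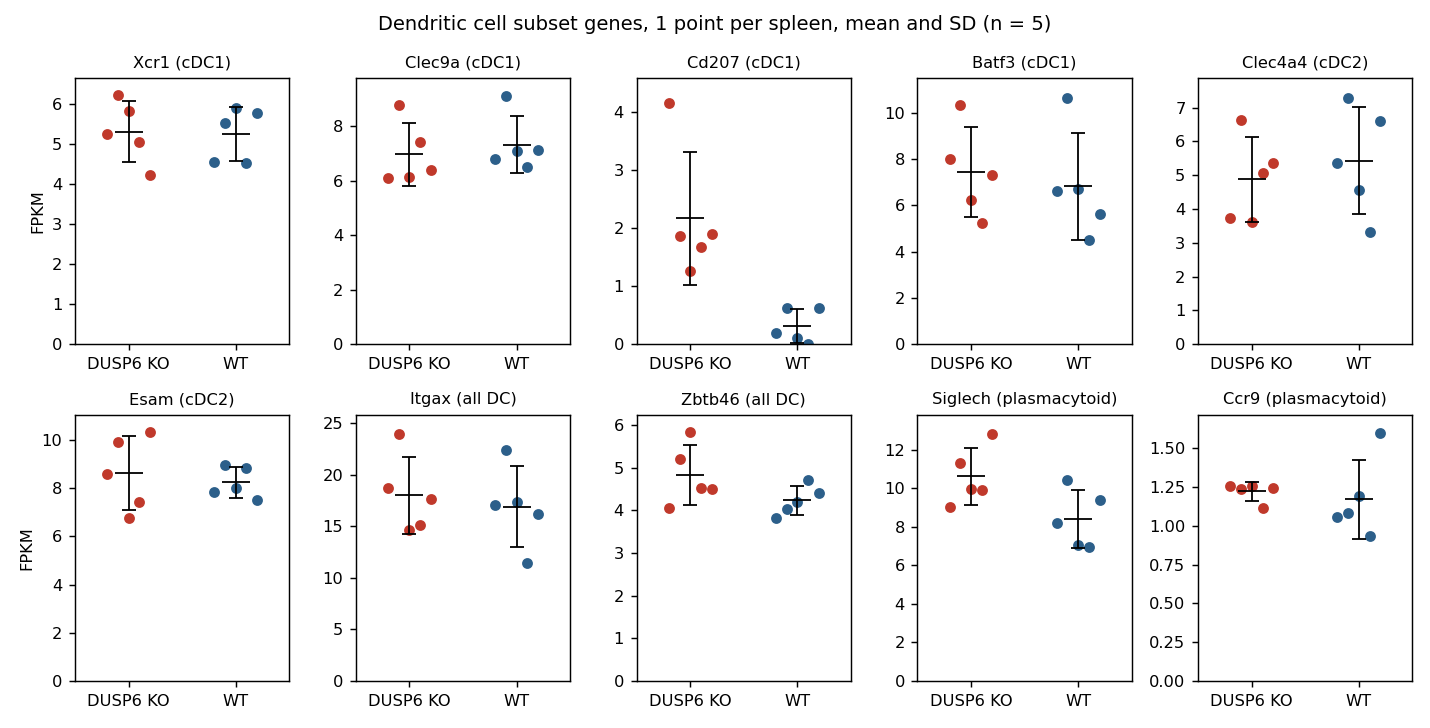
FPKM of each member (vertical axis, starting at 0) in the 5 DUSP6 KO (red) and 5 WT (blue) spleens, with the mean and SD in black. Cd207 lies between 1.26 and 4.15 FPKM in DUSP6 KO and between 0 and 0.623 in WT, and the points of the other 9 genes overlap.

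Itgax and Zbtb46 are shared by the subsets of conventional dendritic cells. Itgax encodes the integrin CD11c, the usual surface marker of dendritic cells, which some macrophages and activated lymphocytes also carry. It was at 18.7, 23.9, 14.6, 15.1 and 17.6 FPKM in DUSP6 KO 26, 21, 73, 01 and 03, and at 17.1, 22.4, 17.3, 11.4 and 16.2 in WT 65, 67, 73, 77 and 83. The groups overlapped, with the lowest level in WT 77 and the highest in DUSP6 KO 21. The log2 fold change was 0.10 (95% interval -0.30 to 0.50, limma adjusted p = 0.99, exact permutation p = 0.67). Zbtb46, a transcription factor that marks conventional dendritic cells and their committed precursors, was at 4.05, 5.19, 5.83, 4.52 and 4.51 FPKM in DUSP6 KO and at 3.82, 4.03, 4.20, 4.70 and 4.39 in WT. In 4 of 5 DUSP6 KO libraries it lay above the WT median, and 2 lay above the highest WT library. Its log2 fold change of 0.18 had an interval of -0.07 to 0.43 (limma adjusted p = 0.95, exact permutation p = 0.13). Without both DUSP6 KO 26 and WT 77 it was 0.27 (unadjusted limma p = 0.045, exact permutation p = 0.029), with no call after adjustment. The intervals of these genes leave room for a difference of up to 0.50 and 0.43 on the log2 scale.

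Of the 4 cDC1 genes, Cd207 alone separated the groups. It encodes langerin, a C-type lectin that binds sugars on microbes and is known from Langerhans cells of the skin and from subsets of cDC1. Its FPKM was 4.15, 1.86, 1.26, 1.67 and 1.90 in DUSP6 KO 26, 21, 73, 01 and 03, and 0.192, 0.619, 0.114, 0 and 0.623 in WT 65, 67, 73, 77 and 83. The lowest DUSP6 KO library thus lay above the highest WT library by more than the whole WT range, and DUSP6 KO 26 stood apart at the top. These are low counts, 118, 55, 28, 55 and 48 reads in the DUSP6 KO libraries and 5, 18, 3, 0 and 17 in the WT libraries, together 304 against 43. In WT 77 a count of 0 allows a level of up to 0.119 FPKM (3 reads). The log2 fold change was 2.72 (SE 0.55, 95% interval 1.51 to 3.93, limma adjusted p = 0.27). Its size depended on the pseudocount, being 1.24 with 1 and 3.65 with 0.01 in place of 0.1. The two-sided exact permutation test of the FPKM gave p = 0.0079, the smallest that 5 against 5 libraries can give. Without DUSP6 KO 26 and WT 77, the highest and the lowest library, the log2 fold change was 2.04 (limma adjusted p = 0.34).

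Xcr1, the chemokine receptor that marks cDC1 and lets them meet XCL1-releasing T and NK cells, was at 5.24, 6.21, 5.81, 5.04 and 4.22 FPKM in DUSP6 KO and at 4.54, 5.52, 5.90, 4.51 and 5.76 in WT. The WT libraries all lay within the DUSP6 KO range, and the log2 fold change was 0.01 (95% interval -0.27 to 0.29, limma adjusted p = 0.998, exact permutation p = 0.92). Clec9a, the receptor for actin filaments exposed on dead cells, was at 6.09, 8.79, 6.13, 7.43 and 6.41 FPKM in DUSP6 KO and at 6.78, 9.13, 7.10, 6.52 and 7.13 in WT. WT 67 was highest, no DUSP6 KO library exceeded it, and the log2 fold change was -0.08 (95% interval -0.36 to 0.21, limma adjusted p = 0.99, exact permutation p = 0.54). Exons of Clec9a share 184 bases with those of the neighbouring Clec1b on the same strand, of 3293 in all. Batf3, the transcription factor that cDC1 need for their development and that activated T cells also use, was at 8.02, 10.3, 6.24, 5.23 and 7.32 FPKM in DUSP6 KO and at 6.63, 10.6, 6.72, 4.48 and 5.63 in WT. Its spread within a group was wide (SD 1.94 and 2.31 FPKM), and the log2 fold change of 0.14 had an interval of -0.37 to 0.66 (limma adjusted p = 0.99, exact permutation p = 0.64). Without WT 67 the log2 fold change of Clec9a turned to 0.0043. The intervals of these 3 genes exclude a difference of the size seen in Cd207.

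Cd207 was also expressed as a share of the other cDC1 surface genes of the same spleen. It reached 79.4, 29.9, 21.6, 33.1 and 45.0% of the FPKM of Xcr1 in DUSP6 KO 26, 21, 73, 01 and 03, and 4.23, 11.2, 1.94, 0 and 10.8% in WT 65, 67, 73, 77 and 83. As a share of Clec9a it was 20.5 to 68.3% in DUSP6 KO and 0 to 8.74% for WT. The groups did not overlap in either ratio, and the WT ratios rest on at most 18 reads of Cd207 each. Xcr1 and Clec9a varied less between libraries than Cd207, so these ratios restate its separation and add no separate evidence.

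The upstream sequences of Cd207 and of 3 members with overlapping groups are shown so that the gene that stood apart can be read beside genes of the same cells. Of the 10 members, 8 were matched in RefSeq's GRCm38.p6 promoter table, and Clec4a4 and Esam were not. The 250 bases before the RefSeq start are printed 5′ to 3′ on the gene's strand for Cd207 (chr6:83677858-83678107, minus strand), Xcr1 (chr9:123862030-123862279, minus strand), Clec9a (chr6:129408612-129408861, plus strand) and Itgax (chr7:128129300-128129549, plus strand). Capitals mark matches to TGANTCA, the letters bound by AP-1 factors, a family to which Batf3 belongs, searched on both strands.
Cd207: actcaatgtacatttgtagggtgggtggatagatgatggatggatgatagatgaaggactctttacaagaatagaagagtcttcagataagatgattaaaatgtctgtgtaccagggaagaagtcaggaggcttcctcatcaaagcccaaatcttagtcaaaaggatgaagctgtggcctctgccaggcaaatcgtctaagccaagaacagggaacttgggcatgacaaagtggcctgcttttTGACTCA
Xcr1: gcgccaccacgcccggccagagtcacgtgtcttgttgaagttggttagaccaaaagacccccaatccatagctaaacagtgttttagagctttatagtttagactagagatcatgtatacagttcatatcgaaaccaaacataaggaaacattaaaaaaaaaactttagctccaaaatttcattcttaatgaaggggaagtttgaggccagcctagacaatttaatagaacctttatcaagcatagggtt
Clec9a: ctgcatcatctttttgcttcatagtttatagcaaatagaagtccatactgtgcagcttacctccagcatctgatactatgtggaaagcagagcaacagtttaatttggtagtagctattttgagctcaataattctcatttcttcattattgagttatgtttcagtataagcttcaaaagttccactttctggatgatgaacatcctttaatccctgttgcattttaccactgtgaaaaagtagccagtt
Itgax: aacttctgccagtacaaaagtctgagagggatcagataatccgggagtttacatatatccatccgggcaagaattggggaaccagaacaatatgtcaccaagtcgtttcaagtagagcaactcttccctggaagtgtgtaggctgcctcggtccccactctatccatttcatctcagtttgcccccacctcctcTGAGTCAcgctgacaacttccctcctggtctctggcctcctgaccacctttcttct
In Cd207 the 7 letters TGACTCA ended at the base before the start, and in Itgax the letters TGAGTCA began 56 bases before it. Neither Xcr1 nor Clec9a held a match in this window. Zbtb46 held one that began 61 bases before its RefSeq start, which lies 35038 bases inside the gene as annotated by GENCODE. Matches were thus present in 3 of 8 members, and in 6.75% of the 32851 promoter windows of that length. The interferon-stimulated response element, held by 2.98% of windows, and the ETS and IRF composite element, held by 2.33%, had no match in the 8, which says nothing of the factors themselves. A match is a description of the sequence and not a measured binding site.

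Cd207 lies on chromosome 6 at 83671215 to 83677857 (GRCm38, minus strand, ENSMUSG00000034783), and its exons share no base with another gene. No transcript of another gene matched it over 100 bases or more at 95% identity. The nearest genes on either side were not expressed at a level that could be compared. Clec4f, another C-type lectin gene 15.0 kb away, had a mean of 0 FPKM in DUSP6 KO and 0.0085 in WT, and Vax2, 33.4 kb away, had 0 and 0.038. Of the genes beyond them, Ankrd53 (84.8 kb away) had a log2 fold change of -0.38 (SE 0.50) at a mean of 0.232 FPKM in DUSP6 KO and 0.271 in WT. Tex261 (91.0 kb) had 0.01 (SE 0.06), Stambp (98.5 kb) 0.08 (SE 0.12) and Nagk (117 kb) -0.0029 (SE 0.15). Zfp638 (189 kb) had -0.22 (SE 0.08, limma adjusted p = 0.79). Langerhans cells and keratinocytes, the skin cells among which Cd207 is best known, were looked for through 7 genes. Krt5 was at 0 in all libraries, and 3 of the 7 genes passed the filter, none with an unadjusted limma p under 0.05. One of them, Cdh1, had a lower mean in DUSP6 KO, 0.608 against 0.827 FPKM (exact permutation p = 0.024, limma adjusted p = 0.94). Means were 0.805 and 0.747 FPKM for Krt10, and 2.82 and 2.83 for Epcam. Epcam was at 4.39, 2.67, 1.87, 2.47 and 2.72 FPKM in DUSP6 KO 26, 21, 73, 01 and 03, libraries that Cd207 ranked alike. In WT 65, 67, 73, 77 and 83 Epcam was at 2.44, 3.72, 2.70, 2.24 and 3.06. WT 67 and 83 were thus highest and WT 77 lowest in both genes. WT 67, the highest WT library in Epcam and in Cdh1, also held RNA of exocrine pancreas. Neither a shared source nor the part of that tissue was tested. The summed level of the 7 genes was 3.08 to 6.00 FPKM in DUSP6 KO and 4.33 to 5.16 in WT.

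The cDC2 genes did not separate the groups. Clec4a4 encodes DCIR2, an inhibitory C-type lectin recognized by the antibody 33D1, and was at 3.73, 6.63, 3.61, 5.06 and 5.36 FPKM in DUSP6 KO and at 5.35, 7.29, 4.56, 3.33 and 6.62 in WT. Its lowest and its highest level were both in WT libraries. The log2 fold change was -0.14 (95% interval -0.65 to 0.37, limma adjusted p = 0.99, exact permutation p = 0.58) from 41 to 108 reads a library, and 301 bases of its transcripts match Clec4a2 at 95.3% identity. Esam, an adhesion molecule of the Notch2-dependent splenic cDC2 that endothelial cells also carry, was at 8.60, 9.92, 6.76, 7.44 and 10.3 FPKM in DUSP6 KO and at 7.85, 8.95, 8.01, 8.85 and 7.51 in WT. DUSP6 KO held both the lowest and the highest level, and the log2 fold change was 0.05 (95% interval -0.23 to 0.32, limma adjusted p = 0.99, exact permutation p = 0.65). Of 8 endothelial markers, 2 (Tek and Stab2) were higher for DUSP6 KO at an unadjusted p under 0.05, with a summed level of 77.7 to 112 FPKM in DUSP6 KO and 67.7 to 105 in WT. Their part in the level of Esam was not tested.

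Siglech, the sialic acid-binding receptor used to identify plasmacytoid dendritic cells and also present on marginal zone macrophages, was at 9.05, 11.3, 9.99, 9.93 and 12.8 FPKM in DUSP6 KO 26, 21, 73, 01 and 03, and at 8.18, 10.4, 7.08, 6.93 and 9.42 in WT 65, 67, 73, 77 and 83. All 5 DUSP6 KO libraries lay above the WT median, 2 lay above the highest WT library, and the groups overlapped. The means were 10.6 ± 1.49 and 8.41 ± 1.51 FPKM (SD, n = 5 each). Its log2 fold change was 0.34 (95% interval 0.04 to 0.64, limma adjusted p = 0.80). The two-sided exact permutation test gave p = 0.056. Without any 1 of DUSP6 KO 21 or 03 or WT 65, 73 or 77, the unadjusted limma p was above 0.05, up to 0.075, and the log2 fold change stayed at 0.27 to 0.42 over all 10 omissions. Ccr9, the receptor for the gut and thymus chemokine CCL25 that plasmacytoid dendritic cells share with T cells, was at 1.26, 1.24, 1.26, 1.12 and 1.25 FPKM in DUSP6 KO and at 1.05, 1.08, 1.19, 0.938 and 1.60 in WT. DUSP6 KO libraries were within 0.143 FPKM of each other, all 5 lay above the WT median and none exceeded WT 83. The log2 fold change was 0.08 (95% interval -0.27 to 0.42, limma adjusted p = 0.99, exact permutation p = 0.69). Without WT 83 the means differed by 0.156 FPKM in place of 0.050 (exact permutation p = 0.024). Exons of Ccr9 share 1932 bases with a gene on the opposite strand, AC165425.1, whose mean was 0.0082 FPKM, 269 with Gm17200 on the same strand (mean 0.088 FPKM) and 22 with Slc6a20a on the opposite strand (mean 2.83 FPKM).

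**Figure D2:**
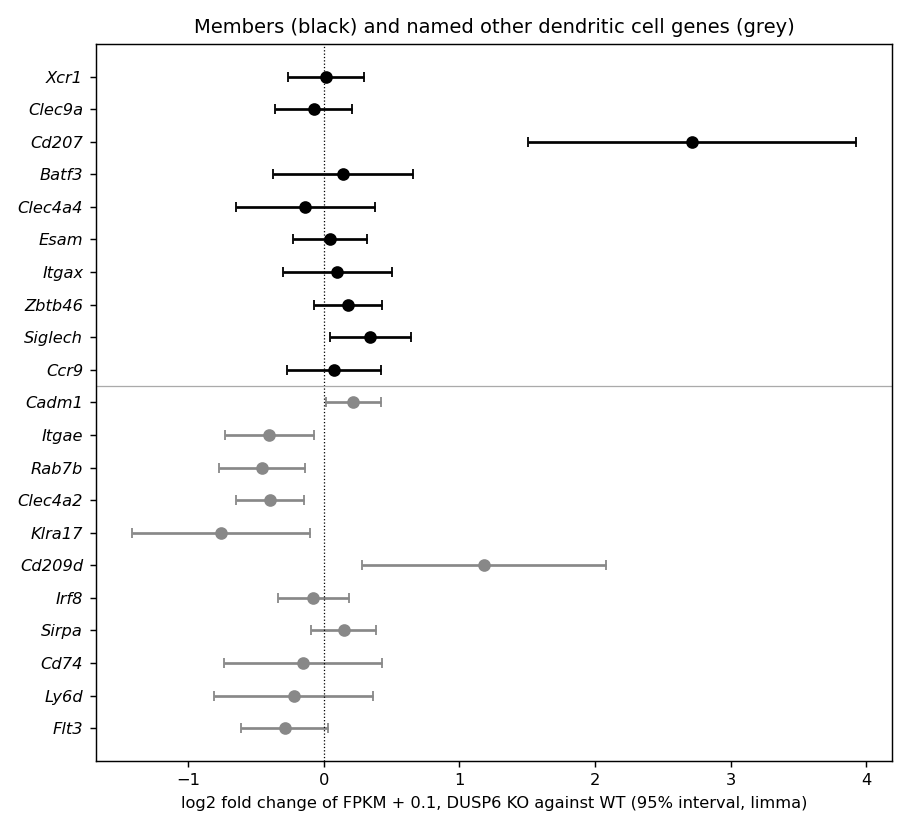
Log2 fold change of FPKM + 0.1, DUSP6 KO against WT (horizontal axis), with the 95% interval of limma, for the 10 members (black) and for other dendritic cell genes named by rule (grey). Among members the intervals of Cd207 (1.51 to 3.93) and Siglech (0.04 to 0.64) lie above 0 and the others include 0.

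On GRCm38 the 10 genes have the same coordinates in the deposited table and in GENCODE, and FPKM counts all their exons. Besides Cd207, chromosome 6 holds Clec9a at 129408862 to 129424763 and Clec4a4 at 122990367 to 123024105, both on the plus strand in clusters of C-type lectin genes. Chromosome 9 holds Xcr1 at 123852315 to 123862029 (minus strand) and Ccr9 at 123678439 to 123784330 (plus strand), neighbours in a cluster of chemokine receptor genes, and Esam at 37528078 to 37538319 (plus strand). Itgax lies at 128129547 to 128150657 and Siglech at 55768178 to 55778925 of chromosome 7 (both plus strand), Zbtb46 at 181387762 to 181459426 of chromosome 2 (minus strand) and Batf3 at 191097847 to 191108945 of chromosome 1 (plus strand).

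In DUSP6 KO the order of mean FPKM was Itgax, Siglech, Esam, Batf3, Clec9a, Xcr1, Clec4a4, Zbtb46, Cd207 and Ccr9. Only Itgax and Siglech, as neighbours in that order, had ranges that did not overlap. In WT the order was Itgax, Siglech, Esam, Clec9a, Batf3, Clec4a4, Xcr1, Zbtb46, Ccr9 and Cd207, and the ranges of Itgax and Siglech, of Zbtb46 and Ccr9, and of Ccr9 and Cd207 did not overlap. Cd207 was therefore the lowest of the 10 in WT, and it stood above Ccr9 in DUSP6 KO with ranges that overlapped. These orders rest on annotated exon lengths, 10260 bases for Ccr9 and 1522 for Cd207. The RefSeq start of Ccr9 lies 88772 bases inside the gene as annotated. In DUSP6 KO, Ccr9 had 189 to 248 reads a library and Cd207 28 to 118.

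To set the subset genes beside genes shared by dendritic cells, the mean of log2(FPKM + 0.1) of Itgax and Zbtb46 was subtracted in each library from that of the other 8 members. Itgax and Zbtb46 did not vary alike within groups (Pearson r = -0.35 over 10 libraries). Their mean is thus a reference by convention and not a measured amount of cells. Cd207 was at -2.16 ± 0.66 in DUSP6 KO and -4.74 ± 1.11 in WT (SD, n = 5 each), a difference of 2.58 with no overlap (p = 0.0079 by the exact permutation test, two-sided, the smallest p it can give, with 8 genes compared). Itgax and Zbtb46 themselves had log2 fold changes of 0.10 and 0.18, so this restates the separation of Cd207 and adds no separate evidence. Clec9a went the other way, at -0.41 ± 0.17 and -0.20 ± 0.08, a difference of -0.21 with overlapping groups (exact permutation p = 0.056). Without DUSP6 KO 01 it was -0.28 (exact permutation p = 0.0079). Siglech differed by 0.20 (exact permutation p = 0.13), by 0.17 with Zbtb46 alone as the reference (exact permutation p = 0.34) and by 0.63 with Flt3 alone (exact permutation p = 0.0079). The other 5 genes differed by -0.28 (Clec4a4) to 0.0061 (Batf3), with exact permutation p of 0.21 or more. The direction of Clec9a, Xcr1, Clec4a4, Esam and Ccr9 depended on the reference, being positive with Flt3 alone in its place. Batf3 differed by 0.43 with Flt3 (exact permutation p = 0.048). Flt3 itself was below the WT median in all 5 DUSP6 KO libraries.

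**Figure D3:**
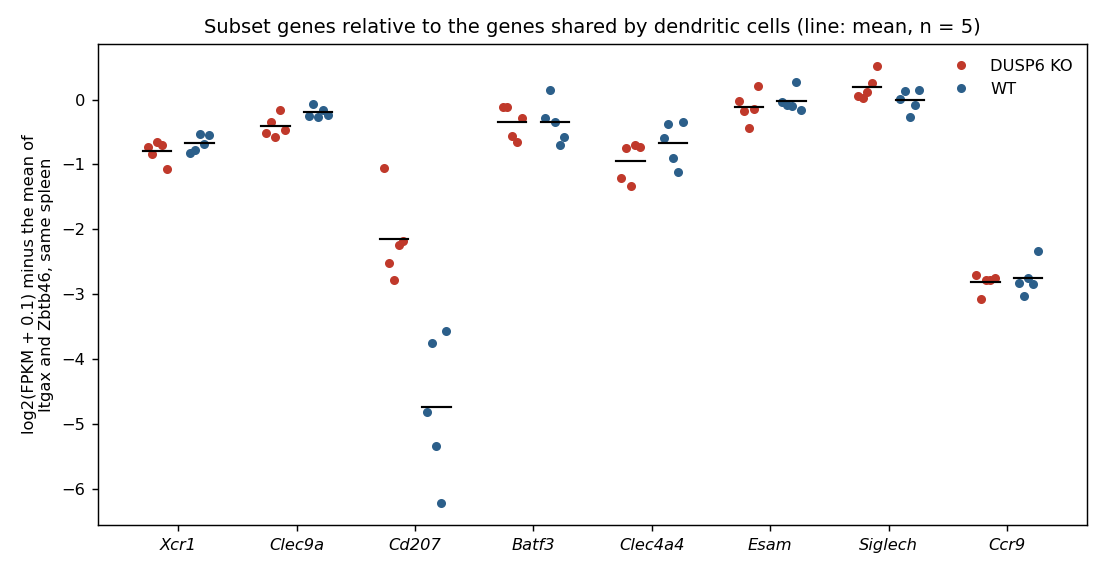
Level of 8 members relative to the mean of Itgax and Zbtb46 in the same spleen, on the log2 scale (vertical axis), for DUSP6 KO (red) and WT (blue), with the group mean as a line. Cd207 lies between -2.78 and -1.05 in DUSP6 KO and between -6.22 and -3.57 in WT, and the other 7 genes overlap.

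A further 58 genes, from lists of subset markers, transcription factors, antigen presentation and growth factors or ligands of dendritic cells, all passed the filter. The ligands Xcl1, Ccl25, Csf2 and Flt3l on these lists act on dendritic cells and are mainly made by other cells. At an unadjusted p under 0.05, 2 were higher and 4 lower for DUSP6 KO, 10.3% of the list beside 5.66% of all genes tested (2.62% higher and 3.03% lower). With limma voom the count was 6 as well, and neither test called any of them after adjustment. These lists, too, were chosen with earlier results known, so the shares do not test them. The median log2 fold change was -0.08, with 17 values above and 41 below 0. By list the medians were -0.12 for 14 cDC1 genes and -0.04 for 13 cDC2 genes. They were -0.13 for 16 genes of dendritic cells in general and -0.05 for 15 plasmacytoid genes. These medians describe whole-spleen RNA and not dendritic cells alone, since B cells also make Cd74 and Ly6d on these lists. The median was -0.205 for 6 B cell genes and 0.0088 for 6 T cell genes. The part of those cells in the lists was not tested.

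Among the cDC1 genes, Itgae, the integrin CD103 that many langerin-positive dendritic cells carry, was lower in every DUSP6 KO library, at 1.66 to 2.68 FPKM, against 2.84 to 3.71 in WT, with a log2 fold change of -0.40 (exact permutation p = 0.0079, limma adjusted p = 0.78). Rab7b, a small GTPase of late endosomes, was likewise without overlap, at 2.07 to 3.72 against 3.79 to 4.48 FPKM, with -0.46 (exact permutation p = 0.0079, limma adjusted p = 0.63). Cadm1, an adhesion molecule of cDC1, was at 5.94 to 7.67 against 5.43 to 6.70 FPKM and had a log2 fold change of 0.22 (exact permutation p = 0.032, limma adjusted p = 0.84). Irf8, the factor that specifies cDC1 and has the highest level of that list, was at 47.2 ± 6.72 FPKM in DUSP6 KO and 49.6 ± 5.87 in WT (SD, n = 5 each). Its log2 fold change was -0.08 (95% interval -0.34 to 0.18). The unadjusted limma p of Cadm1 was under 0.05 in 10 of 21 alternatives, and that of Itgae in 19, being above it without WT 73 and without DUSP6 KO 26 and WT 77 together. The log2 fold change of Itgae was -0.35 in the first case and -0.25 in the other, and -0.28 without DUSP6 KO 26 alone. Every DUSP6 KO library lay below every WT library in 0.563% of all genes tested. Cd207 and Itgae thus lay on opposite sides of 0 in whole-spleen RNA, which does not show whether the same cells carry them.

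Of the cDC2 list, Clec4a2, an inhibitory lectin receptor related to Clec4a4, was at 5.90 to 7.93 FPKM in DUSP6 KO and 7.87 to 10.8 in WT, with a log2 fold change of -0.40 (exact permutation p = 0.016, limma adjusted p = 0.55). Sirpa, which binds CD47 and marks cDC2 and macrophages, was at 79.1 ± 13.2 and 70.8 ± 2.60 FPKM, with 0.14 (95% interval -0.09 to 0.38). Cd74, the invariant chain of MHC class II that B cells also make, was at 3740 ± 839 and 4168 ± 1010 FPKM, with -0.15 (95% interval -0.74 to 0.43). Flt3, the receptor for the growth factor on which dendritic cells depend, had the lowest p of the general list, at 4.80 to 7.17 against 6.25 to 9.51 FPKM, with -0.29 (95% interval -0.61 to 0.03, limma adjusted p = 0.93, exact permutation p = 0.087).

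In the plasmacytoid list Cd209d, a lectin of the DC-SIGN family, was at 7.70 to 10.4 FPKM for DUSP6 KO and 1.11 to 7.41 for WT, without overlap, with a log2 fold change of 1.18 (exact permutation p = 0.0079, limma adjusted p = 0.75). Klra17, a receptor of the Ly49 family found on plasmacytoid dendritic cells, was at 0.736 to 2.11 against 1.16 to 3.21 FPKM, with -0.76 (exact permutation p = 0.048, limma adjusted p = 0.79). Without WT 77, which had the lowest Cd209d, its log2 fold change was 0.74, and the unadjusted limma p of Klra17 was under 0.05 in 16 of 21 alternatives, being above it without DUSP6 KO 01, 03 or 73 or WT 67 or 83. Ly6d, which B cells also carry, was at 294 ± 82.1 and 343 ± 102 FPKM, with -0.22 (95% interval -0.81 to 0.36). The genes of this list at an unadjusted p under 0.05 therefore lay on both sides of 0, and Siglech was not accompanied by the list as a whole.

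Since marginal zone macrophages can also carry Siglech, genes of splenic macrophages were read beside it, and none had a limma adjusted p of up to 0.05. Of 4 marginal zone macrophage genes, Cd209b, a lectin encoded near Cd209d, was at 19.2 ± 5.63 FPKM in DUSP6 KO and 10.2 ± 1.99 in WT, and the scavenger receptor Marco was at 120 ± 27.4 against 71.6 ± 8.84 (SD, n = 5 each). Neither gene overlapped between the groups, with log2 fold changes of 0.89 (exact permutation p = 0.0079, limma adjusted p = 0.36) and 0.72 (exact permutation p = 0.0079, limma adjusted p = 0.34). Siglec1 had 0.54 (95% interval -0.0037 to 1.08) and Cd5l -0.50 (95% interval -1.10 to 0.10). Summed, the 4 genes were at 160 to 290 FPKM in DUSP6 KO and 156 to 187 in WT. None of the 4 was at 0. Of 8 red pulp macrophage genes, 2 were higher at an unadjusted p under 0.05, Adgre1 with 0.38 (exact permutation p = 0.0079, limma adjusted p = 0.59) and Cd163 with 0.39 (exact permutation p = 0.032, limma adjusted p = 0.73), and the list summed to 1023 to 1575 against 1101 to 1355 FPKM. The part of these cells in the levels of Siglech and Cd209d was not tested.

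**Figure D4:**
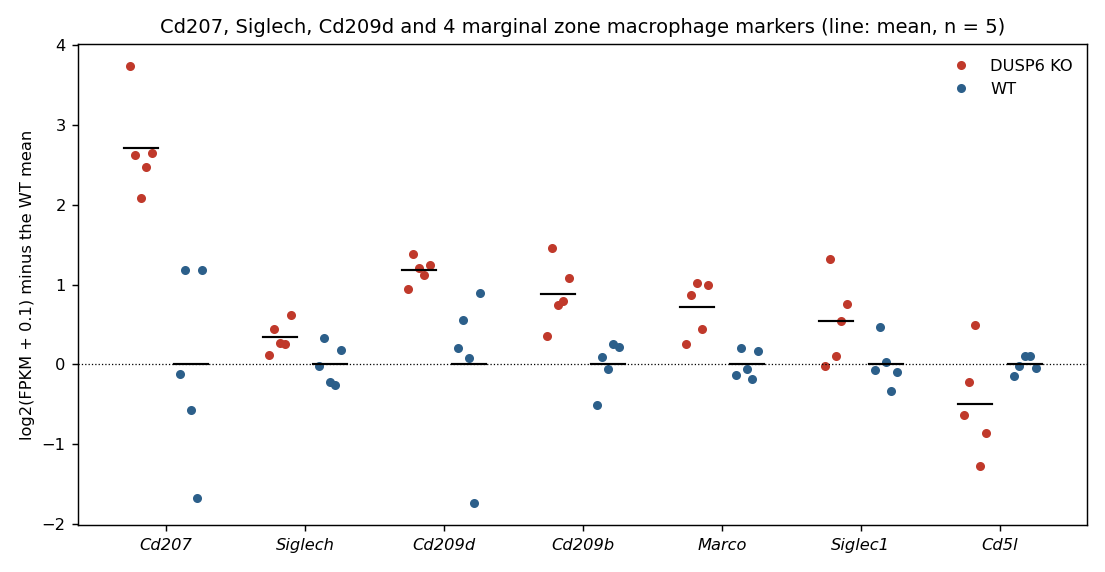
Log2(FPKM + 0.1) minus the WT mean of the gene (vertical axis) for Cd207, Siglech, Cd209d and the 4 marginal zone macrophage markers, 1 point per spleen, with DUSP6 KO in red, WT in blue and the group mean as a line. Cd207, Cd209d, Cd209b and Marco show no overlap between the groups, whereas Siglech, Siglec1 and Cd5l do.

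Other cell types were measured through their own lists, on which no gene had a limma adjusted p of up to 0.05. Of 8 neutrophil genes, 5 were lower for DUSP6 KO at an unadjusted p under 0.05 and none was higher, with sums of 478 to 1652 FPKM in DUSP6 KO and 982 to 4117 in WT. Of 6 megakaryocyte genes that passed the filter all had a log2 fold change below 0 and 2, Itga2b and Pf4, were lower at an unadjusted p under 0.05, with sums of 226 to 320 FPKM in DUSP6 KO against 214 to 502 for WT. Clec1b, which shares exon bases with Clec9a, is a gene of platelets. All 5 NK cell genes were likewise below 0, of which Klra8 alone had an unadjusted p under 0.05, at 2.03 to 5.23 against 6.33 to 12.8 FPKM without overlap, and the list summed to 27.9 to 58.2 against 32.4 to 83.1 FPKM. Among 5 plasma cell genes 1, Xbp1, was lower at an unadjusted p under 0.05. All 5 erythroid genes had a log2 fold change above 0, none with an unadjusted p under 0.05. They summed to 17560 to 89893 FPKM in DUSP6 KO and 21874 to 42966 in WT. Of 6 monocyte genes 3 were higher and 2 lower at an unadjusted limma p under 0.05, with sums of 222 to 307 and 202 to 237 FPKM. None of 6 T cell or 6 B cell genes had an unadjusted p under 0.05, and T cell genes, which bear on Ccr9 and Batf3, summed to 85.5 to 181 FPKM in DUSP6 KO and 98.6 to 153 in WT. All 6 B cell genes had a log2 fold change below 0, with sums of 438 to 896 against 508 to 1131 FPKM. The part of these cells in the members' levels was not tested.

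Across the 10 libraries, after the group means were subtracted, the members that varied most alike were Batf3 and Itgax (Pearson r = 0.95), followed by Clec4a4 and Siglech (0.84) and Clec9a and Clec4a4 (0.79). For Cd207, r was 0.56 with Batf3, 0.32 with Clec9a and 0.29 with Xcr1 among the cDC1 genes, 0.65 with Itgax, 0.62 with Clec4a4, 0.60 with Ccr9, 0.56 with Siglech, 0.05 with Esam and -0.51 with Zbtb46. Among 13421 genes whose mean reached 1 FPKM, the gene most like Xcr1 was the cDC1 gene Cadm1 (r = 0.94), and AC115954.1 was also among the most alike (0.92). Itgax was followed most closely by Rgs2, Ctss and Gm2a (0.98 to 0.99), Clec9a by Uhrf1bp1l, Afdn and St8sia4 (0.96 to 0.97), and Batf3 by Mpzl3, Smim19 and Cd38 (each 0.97). For Cd207 these genes were Gm12396, Cib1 and Utp11 (0.93 to 0.95), for Clec4a4 Fchsd2, Cep120 and Gm15674 (0.98 to 0.99), and for Esam Gm14085 and Tmem185b (0.98 and 0.94). Zbtb46 was most like Exoc2, Ube2g1 and Gm23864 (0.93 to 0.96), Siglech like Sncg, Ubxn11 and Secisbp2 (0.94 to 0.95), and Ccr9 like the immunoglobulin gene segments Igkv17-121, Igkv8-21 and Igkv1-117 (each 0.92). These values describe 10 libraries that share their depth and cell composition across genes, and they are the highest of all 13421.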

How the data were processed

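RNA of 10 spleens, 5 DUSP6 KO and 5 WT, was sequenced by a service provider. Per the paper's methods, the authors used Hisat2 for alignment, featureCounts for counting reads per gene (version 1.5.0-p3 in the submitters' processing notes) and DESeq2 for testing. The authors deposited FPKM values and gene lengths, the only values used. The processing notes name hg38, although the gene identifiers and coordinates are of mouse GRCm38. Of 54532 genes, 54409 are in GENCODE M21, 98.1% of the table with identical coordinates, and the 10 members are among these. The strand setting of the counting is not given in the sources used here.

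Whole reads were recovered from FPKM and gene length for 100% of values (tolerance 0.001 read). The divisor of the authors was 0.949 to 1.12 times the summed reads. Replicates within a group differed beyond sampling noise (chi-square per gene 13.4 to 151 over 20 pairs).

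Groups were compared with limma (version 3.58.1, R 4.3.3) by lmFit and trended eBayes on log2(FPKM + 0.1). The 21296 genes with a mean of 0.1 FPKM or more were tested, and p-values were adjusted after Benjamini and Hochberg (threshold 0.05). Fold changes on this scale understate those of low genes. Voom on the recovered reads, an alternative, called 14 genes. Single genes and relative levels went through exact permutation tests, all two-sided, with 252 arrangements. Transcripts were compared with blastn 2.17.0. On simulated data with 200 of 20904 genes changed, 50 of 100 genes changed 2-fold and 97 of 100 changed 4-fold were recovered, with 6 false calls. Whether these rates hold for a gene as low and as variable as Cd207 was not tested. Its SD was 52.6% of the mean in DUSP6 KO and 94.4% in WT, where it had 0 to 18 reads. The simulated rates therefore say nothing of its uncalled difference.

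The members and gene lists were chosen with earlier results of these data known. Named were the members, other dendritic cell genes with an unadjusted p under 0.05, the gene of each list with the highest mean and that with the lowest p, and the 3 genes most like each member, of which some are not reported here. Marker genes of other cell types and neighbours of Cd207 were named after their values were seen.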

Additional observations from a re-analysis of the deposited data

Results flagged for a closer look

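In 6 of 88 groups of 5 libraries examined, 1 library lay far from the other 4, and chance gives such a library in about 1 in 20 groups. DUSP6 KO 26 had the highest Cd207, 4.15 FPKM, and the lowest Itgae of its group, 1.66 FPKM. WT 67 had the highest Clec9a of its group, 9.13 FPKM, and the highest sum of exocrine pancreas genes, 6163 FPKM. DUSP6 KO 01 had the lowest Ccr9 of its group, 1.12 FPKM. The highest WT sum of Langerhans cell and keratinocyte genes, 5.16 FPKM, was also in WT 67.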

How the results depend on the processing

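Cd207 kept its direction and an unadjusted p under 0.05 in all 21 alternatives, with a log2 fold change of 1.24 (pseudocount 1) to 3.65 (pseudocount 0.01), 2.30 to 3.01 when single libraries were left out, and an adjusted p of 0.20 to 0.55. Siglech was higher in all 21 and had an unadjusted p under 0.05 in 15. Members at an unadjusted p under 0.05 numbered 3 without DUSP6 KO 26 and WT 77, 1 after rescaling to summed reads and 1 to 2 without single libraries. Over all genes, adjusted calls were 6 to 21 higher and 4 to 13 lower without single libraries, 4 lower with a minimum mean of 1 FPKM and 5 higher without DUSP6 KO 26 and WT 77, and the unadjusted counts with that minimum were 349 higher and 409 lower. Near-zero differences turned sign. Without both DUSP6 KO 26 and WT 77, the log2 fold changes of Xcr1, Batf3, Itgax and Ccr9 were -0.0367, -0.0263, -0.0522 and -0.0032, and their FPKM differences -0.110, -0.116, -0.448 and -0.0179. Without single libraries the log2 fold changes ranged from -0.16 to 0.0043 (Clec9a), -0.0215 to 0.13 (Esam), -0.0329 to 0.21 (Itgax) and -0.0465 to 0.0901 (Xcr1), and FPKM differences from -0.112 to 1.57 (Batf3), -0.0089 to 0.156 (Ccr9), -0.819 to 0.0865 (Clec9a), -0.0566 to 0.834 (Esam), -0.391 to 2.47 (Itgax) and -0.171 to 0.327 (Xcr1). Relative to Flt3 the differences of Xcr1, Clec9a, Clec4a4, Esam and Ccr9 were 0.30, 0.21, 0.15, 0.34 and 0.36, relative to Zbtb46 alone that of Batf3 was -0.0330, and relative to Xcr1, Clec9a and Batf3 those of Esam and Ccr9 were 0.0212 and 0.0484. Relative values without single libraries ranged from -0.0809 to 0.13 (Batf3) and -0.13 to 0.0428 (Ccr9). The cause of these turns was not tested. Rescaling to summed reads, the omission of both libraries and the reference of 3 cDC1 genes were chosen after seeing the data. No paired analysis was possible because the groups share only 1 animal number. Low counts limit Cd207, with 43 reads in the WT libraries together.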
